A study of Mus musculus with 10 samples.

Results

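The cytosolic ribosomal protein genes of leukemic mouse spleens were compared between spleens in which Sirt1 had been deleted and Control spleens. The 79 genes were the rows of the deposited table whose symbol begins with Rpl or Rps followed by a number, with at most 1 closing letter a, l or x, or is Rplp0, Rplp1, Rplp2, Rpsa or Rpl22l1, and whose value was 10 or more in at least 5 of the 10 libraries. They were 79 of the 16865 gene symbols listed, with 47 genes of the large subunit and 32 of the small subunit. The study sequenced strand-specific libraries of total RNA from 10 spleens of C57BL/6 mice that had been sub-lethally irradiated and then given T cell acute lymphoblastic leukemia (T-ALL) cells intravenously. All the leukemias carried a conditional knockout allele of Sirt1, which encodes a deacetylase that uses NAD. The 5 Sirt1 deleted mice received 3 mg of tamoxifen in corn oil by intraperitoneal injection, and the 5 Control mice received corn oil alone.

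The labels name neither the Cre transgene that acts on the allele nor the leukemia that each recipient carried, and they give no age. No mouse received tamoxifen without the deletion, so the drug and the loss of Sirt1 cannot be told apart. Libraries are numbered in the order of the series, the numbers pair no library with another, and nothing says that the spleens came from independent leukemias, so the p-values speak only to the spread among these spleens. Each spleen was a suspension of all its cells after red cell lysis, and in such bulk RNA fewer cells of a type and less RNA per cell cannot be told apart. Normalized counts summed to between 33.6 and 34.8 M per library, and the spacing of the lowest values gave depths of about 21.2 to 44.6 M reads. RNA of T cells or T-ALL cells was present in all spleens. A list of 16 T cell and T-ALL markers summed to between 265000 and 305900 normalized counts in the Sirt1 deleted spleens. In the Control spleens the sum was between 266000 and 293490. This sum does not separate T-ALL cells from other T cells.

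A ribosome is built of a small subunit, which reads the mRNA, and a large subunit, which joins the amino acids, and each ribosomal protein is needed in about the same amount as the others. In mammals the mRNAs of ribosomal proteins mostly begin with a run of pyrimidines, the 5′ TOP motif, through which mTOR and LARP1 govern their translation and stability. Unassembled large subunit proteins bind and inhibit MDM2 and so stabilize p53. In human T-ALL, ribosomal protein genes of the large subunit are recurrently mutated, and in mice loss of Rpl22 impairs the development of αβ T cells and hastens T cell lymphoma.

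Sirt1 itself, at chr10:63319005-63381704, minus strand (GRCm38), was lower in the deleted spleens but not absent from them. Its values were 922, 824, 1071, 1061 and 710 in the Sirt1 deleted spleens, against 1324, 1348, 1174, 1192 and 1126 in the Control spleens (all normalized counts). Every Sirt1 deleted spleen lay below every Control spleen. The labels do not say which exons are removed, and a value for the whole gene cannot show their loss. The log2 difference, which is log2(value + 1) in Sirt1 deleted minus Control throughout, was -0.44 (exact permutation p = 0.00794, two-sided, the smallest that 5 against 5 libraries allow, and limma adjusted p = 0.0125). With each library's transcript length trend as a covariate, described further on, the difference was -0.00057 (exact permutation p = 1). The groups do not overlap in this trend, so such a fit cannot separate the trend from the deletion. With the same covariate limma called 0 of all 13567 genes in either direction. The Sirt1 difference stayed below 0 under all 22 alternative settings, the length and GC corrections among them, and ranged from -0.50 to -0.00057.

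Ribosomal protein genes were higher as a body in the Sirt1 deleted spleens, by modest and similar amounts. Of the 79 genes, 70 were higher at a limma adjusted p of 0.05 over all 13567 genes tested and 0 were lower (0 also at an unadjusted p of 0.05), where 14.5% of all tested genes were higher and 17.5% lower. The 9 that did not pass were Rpl3, Rpl4, Rpl5, Rpl9, Rpl34, Rplp0, Rps3, Rps4l and Rps14. Among these Rps14 stood near the median of the family, at 0.33 ± 0.12 (limma adjusted p = 0.055), and Rpl9 and Rpl34 were at 0.16 ± 0.063 (limma adjusted p = 0.0721) and 0.16 ± 0.071 (limma adjusted p = 0.102). All 79 differences were positive with the deposited scaling and with TMM factors, and 73 of 79 with quantile normalization. Their median was 0.36, a rise of 28.2%, and they ran from 0.05 to 0.53, beside a median of 0.00097 over all genes tested. For 56 of the 79, every Sirt1 deleted spleen lay above every Control spleen, which held for 8.28% of all tested genes. Leaving out Control library 1 or Control library 2 lowered the count of higher genes to 42 and 45, with 0 lower, where 7.39% and 6.8% of all tested genes were then higher and 9.82% and 9.42% lower. Leaving out Sirt1 deleted library 5 lowered the median to 0.27.

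Summed over the 79 genes, ribosomal protein mRNA took 10.6, 11.8, 10.7, 10.6 and 13.8% of all normalized counts in Sirt1 deleted libraries 1 to 5, against 8.65, 8.86, 9.51, 9.22 and 10.1% in Control libraries 1 to 5. The groups did not overlap, with a mean of 11.5 ± 1.38% in Sirt1 deleted spleens and 9.27 ± 0.573% in Control spleens (SD, n = 5 each). Sirt1 deleted library 5 stood far above the other 9, and Sirt1 deleted libraries 1, 3 and 4 lay close to Control library 5. Gene by gene the same libraries stood at the ends: Sirt1 deleted library 5 held the highest value of 77 of the 79 genes, and the lowest value was in Control library 1 for 60 genes, in Control library 2 for 10 and in Control library 3 for 9.

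**Figure D1:**
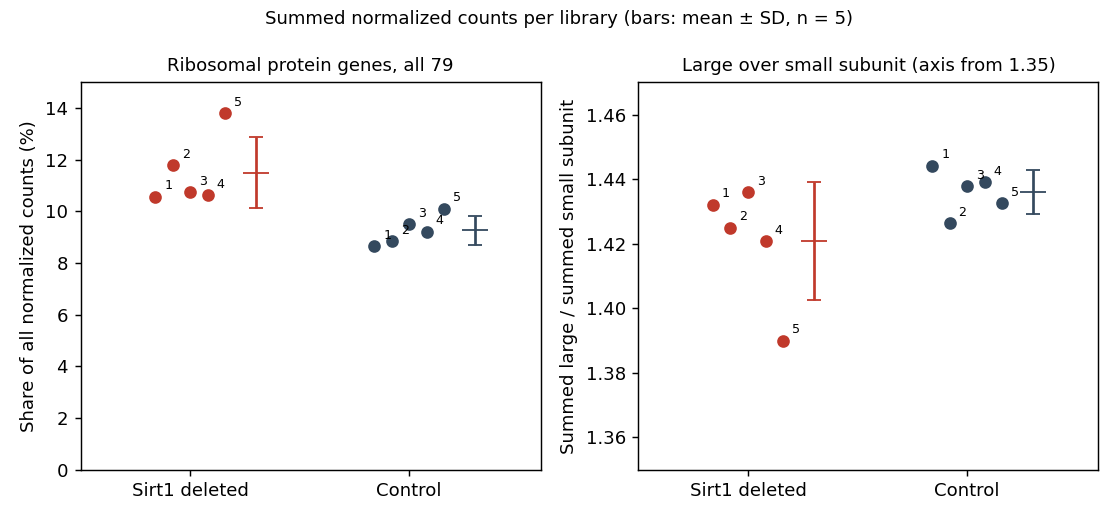
Left, the share of all normalized counts (%) taken by the 79 ribosomal protein genes in each library, numbered within its group. Right, the summed large subunit counts over the summed small subunit counts on an axis that does not start at 0. Points are libraries and bars are mean ± SD (n = 5). The shares of the Sirt1 deleted libraries begin at 10.6%, above the highest Control library at 10.1%, and the subunit ratios of the groups overlap.

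The large and the small subunit moved alike. In the large subunit 41 of 47 genes were higher, with a median difference of 0.36 and 32 genes whose groups did not overlap. In the small subunit 29 of 32 genes were higher, with a median of 0.34 and 24 genes whose groups did not overlap. Over all tested genes 14.5% were higher, and in 8.28% every Sirt1 deleted spleen lay above every Control spleen. With quantile normalization the counts were 28 of 47 and 18 of 32, with 0 lower in either, where 17.3% of all tested genes were higher and 15.4% lower, and both medians were 0.17.

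The ratio of summed large to summed small subunit counts was 1.43, 1.43, 1.44, 1.42 and 1.39 in Sirt1 deleted libraries 1 to 5, against 1.44, 1.43, 1.44, 1.44 and 1.43 in Control libraries 1 to 5. Its mean was 1.42 ± 0.0182 in Sirt1 deleted spleens and 1.44 ± 0.0068 in Control spleens (SD, n = 5 each). The log2 ratio differed by -0.015, about as much as its SD between replicates of 0.014, and by -0.0076 without Sirt1 deleted library 5, the one library with a ratio below 1.4. So the sum of each subunit moved by nearly the same factor, 1.246 for the large and 1.261 for the small. Coding lengths were also alike, with a median of 471 bases in the large and 438 bases in the small subunit.

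**Figure D2:**
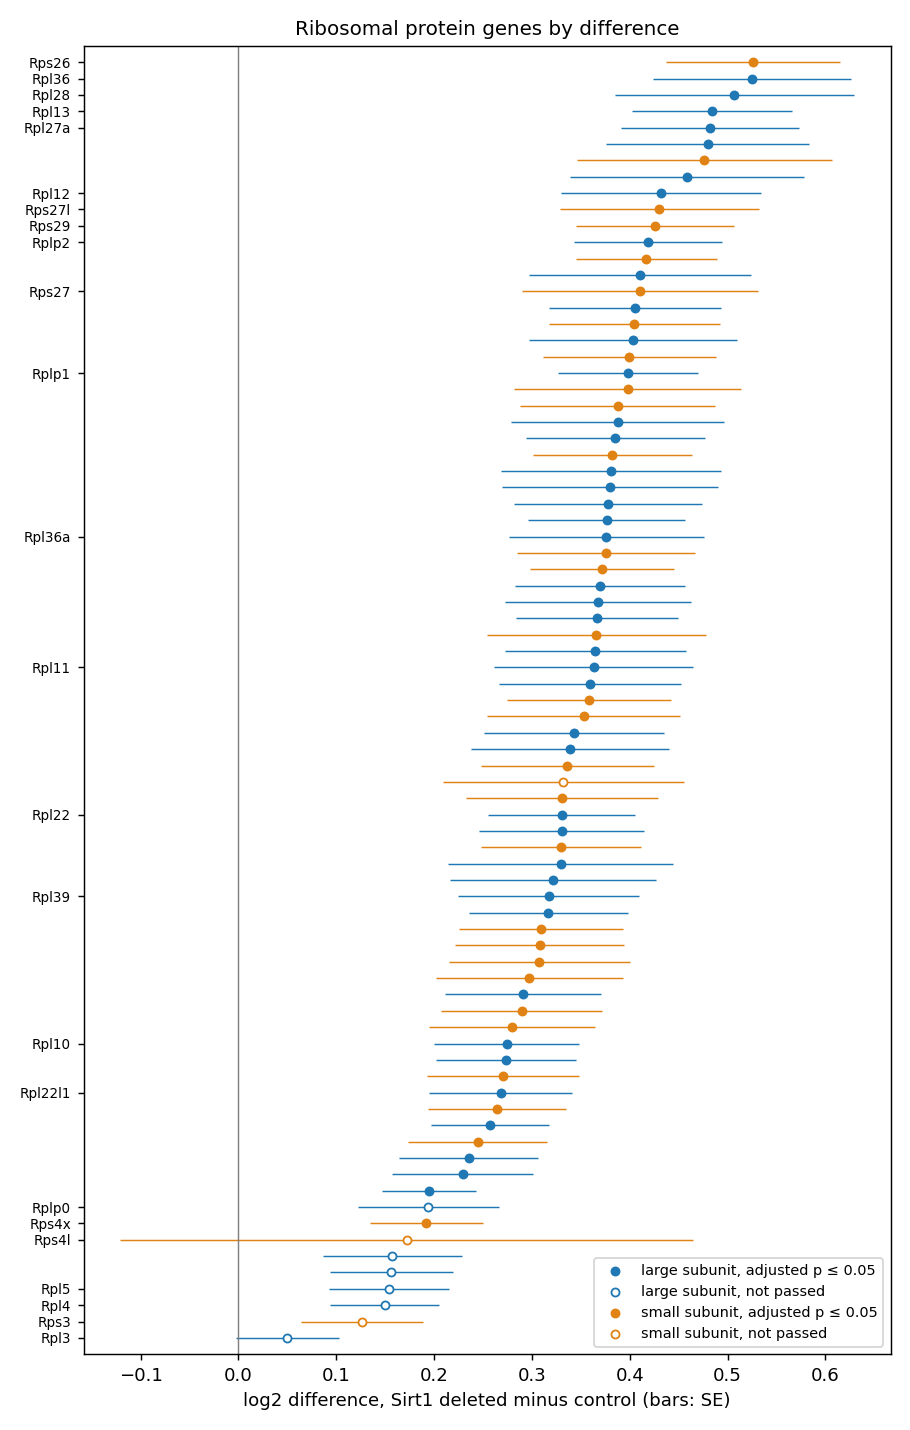
The log2 difference, Sirt1 deleted minus Control, of each of the 79 ribosomal protein genes with its SE, ordered from the highest at the top to the lowest, with the genes chosen by the naming rule labelled. Blue points are large subunit genes, orange points small subunit genes, and filled points passed an adjusted p of 0.05. All 79 points lie right of 0 with the deposited scaling (73 of 79 with quantile normalization), the subunits mix along the order, and Rps4x is the one filled point among the 9 lowest genes.

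The genes with the highest differences came from both subunits. Rps26, a small subunit protein next to the channel where mRNA leaves, lies at chr10:128624534-128626747, minus strand (GRCm38). It had 29719.5, 32942, 30093, 29766 and 41616 normalized counts in the Sirt1 deleted spleens, against 21762, 21761, 22655, 21907 and 25059.6 in the Control spleens. Its groups did not overlap, Sirt1 deleted library 5 was the highest, and the log2 difference was 0.53 ± 0.089 (limma adjusted p = 0.00797). Rpl36, a protein of the large subunit, had 17999, 21944, 18786, 18418 and 25769 normalized counts in the Sirt1 deleted spleens, against 14385, 13156, 12684, 14295 and 16637 in the Control spleens. Its difference was 0.52 ± 0.10 (limma adjusted p = 0.00797), with no overlap. Corrected for GC content and length, it was -0.074 with the longest and -0.026 with the principal transcript and 0.046 with coding length, and it passed in none of these. Rpl28, a large subunit protein that budding yeast lacks, had 38417, 43288, 37201, 35769 and 59206 normalized counts in the Sirt1 deleted spleens, against 27179, 27852, 33182, 27485 and 32732 in the Control spleens. Its lowest Sirt1 deleted value stood above its highest Control value, and the difference was 0.51 ± 0.12 (limma adjusted p = 0.012).

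Rpl13 and Rpl27a, also of the large subunit, followed closely. Rpl13 had 48919.7, 53944, 50870.3, 46419 and 59568 normalized counts in the Sirt1 deleted spleens, against 36477, 34382, 35581, 35334 and 43958 in the Control spleens. Rpl27a had 48438, 56539.7, 53428, 47106 and 66092 normalized counts in the Sirt1 deleted spleens, against 37839, 36413, 36668, 37989.8 and 44579 in the Control spleens. In both, Control library 5 stood above the other Control libraries and below every Sirt1 deleted library, and the differences were 0.48 ± 0.082 (limma adjusted p = 0.00797) for Rpl13 and 0.48 ± 0.091 (limma adjusted p = 0.00797) for Rpl27a. In the small subunit Rps27l, described with its paralog, and Rps29 also had high differences. Rps29 averaged 37238 ± 4632 normalized counts in Sirt1 deleted spleens and 27602 ± 1779 in Control spleens (SD, n = 5 each), a difference of 0.43 ± 0.081 (limma adjusted p = 0.00797) with no overlap. Corrected for GC content and longest, principal or coding length, Rps29 was at -0.042, 0.018 and 0.032 and passed in none. Rpl13 was then at 0.11, 0.13 and 0.25 and Rps27l at 0.12, 0.13 and 0.23, and both passed only with coding length.

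The lowest differences were those of Rpl3, Rps3, Rpl4 and Rpl5. Rpl3, which reaches towards the site where peptide bonds form, had 89759, 93483, 89272, 92277 and 94397 normalized counts in the Sirt1 deleted spleens, against 85082, 87964, 93651, 86923 and 90061 in the Control spleens. The groups overlapped and the difference was 0.050 ± 0.052 (limma adjusted p = 0.48). Rps3, which lines the channel where mRNA enters, had 60129, 64882, 59559, 62224 and 71338 normalized counts in the Sirt1 deleted spleens, against 55125, 58525, 61679.8, 56489 and 59189.9 in the Control spleens. Control library 3 lay within the Sirt1 deleted range, and the difference was 0.13 ± 0.062 (limma adjusted p = 0.131). Rpl4, which extends into the tunnel through which the new protein leaves, had 98133, 100140, 100164, 98741 and 108763 normalized counts in the Sirt1 deleted spleens, against 88095, 89801, 96982, 89184 and 92066 in the Control spleens. Its groups did not overlap, with a difference of 0.15 ± 0.056 (limma adjusted p = 0.0558) and an adjusted p of 0.0476 without Control library 3. With quantile normalization the differences of Rpl3, Rpl4 and Rps3 turned to -0.11, -0.026 and -0.057.

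Rps4x, the X-linked gene of a small subunit protein, was among the lowest that passed. It had 80875, 87794, 88088, 85691 and 92919 normalized counts in the Sirt1 deleted spleens, against 71779, 74488, 78033, 75927 and 80838 in the Control spleens. The lowest Sirt1 deleted value stood just above the highest Control value, and the difference was 0.19 ± 0.058 (limma adjusted p = 0.0255). Without Sirt1 deleted library 2 or Control library 1, 2 or 4 its adjusted p was 0.0605, 0.0747, 0.0673 and 0.0529. Rps4l, at chr6:148354656-148355598, plus strand, is annotated in GENCODE as a transcribed processed pseudogene and was the gene nearest to the threshold of 10. Its values were 13.4, 13.9, 22.5, 27.9 and 24.7 in the Sirt1 deleted spleens, against 16, 18, 9.56, 25.1 and 22.2 in the Control spleens, which overlapped throughout, with a difference of 0.17 ± 0.29 (limma adjusted p = 0.673) that became -0.027 without Control library 3.

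Another 4 symbols matched the name rule but fell short of 10 normalized counts in at least 5 libraries. Rpl10l, a copy of Rpl10 used in the testis, ranged from 0 to 4.83 over the libraries, and Rpl39l, a like copy of Rpl39, from 0 to 6.91. Rpl3l, the striated muscle copy of Rpl3, ranged from 0 to 7.6. Rpl32l ranged from 3.92 to 11.9 and reached 10 in 2 libraries. All 4 were too low to compare.

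To show what the starts of these genes look like at both ends of the ranking, 60 bases around the transcription start of 4 of the most raised and 4 of the least raised genes are printed from RefSeq (GRCm38.p6), from 40 bases before the start to 20 bases into the transcript. They are Rps26 at chr10:128626487-128626546 (minus strand), Rpl28 at chr7:4792925-4792984 (plus strand), Rpl27a at chr7:109519155-109519214 (plus strand) and Rpl13 at chr8:123102310-123102369 (plus strand), then Rps3 at chr7:99483690-99483749 (minus strand), Rpl4 at chr9:64173347-64173406 (plus strand), Rpl5 at chr5:107900488-107900547 (plus strand) and Rps4x at chrX:102189372-102189431 (minus strand). Each reads 5′ to 3′ along the gene, and capitals mark the longest run of C and T that touches the 20 bases on either side of the start. RefSeq's start need not be that of GENCODE. It lies inside the GENCODE gene for Rps26, Rpl28, Rpl27a, Rps3, Rpl4, Rpl5 and Rps4x, and at its start for Rpl13.
Rps26: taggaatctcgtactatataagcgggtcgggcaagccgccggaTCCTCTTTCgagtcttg
Rpl28: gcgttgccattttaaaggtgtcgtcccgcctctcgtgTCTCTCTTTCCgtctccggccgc
Rpl27a: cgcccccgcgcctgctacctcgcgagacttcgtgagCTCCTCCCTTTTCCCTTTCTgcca
Rpl13: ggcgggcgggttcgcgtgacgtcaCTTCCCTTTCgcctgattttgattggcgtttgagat
Rps3: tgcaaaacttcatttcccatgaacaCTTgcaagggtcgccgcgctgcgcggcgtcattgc
Rpl4: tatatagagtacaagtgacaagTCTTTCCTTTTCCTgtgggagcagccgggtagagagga
Rpl5: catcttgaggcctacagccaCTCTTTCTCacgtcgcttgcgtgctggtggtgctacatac
Rps4x: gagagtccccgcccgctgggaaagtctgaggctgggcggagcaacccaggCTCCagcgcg

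Long pyrimidine runs stood at both ends. The longest marked run was 9, 11, 20 and 10 bases in Rps26, Rpl28, Rpl27a and Rpl13, and 3, 14, 9 and 4 bases in Rps3, Rpl4, Rpl5 and Rps4x. RefSeq promoter windows (250 bases before to 50 after the start listed for the gene) were matched for 58 of the 79 genes. A C/T run of at least 8 bases within 20 bases of the start was in 28 of them (48.3%), beside 15.8% of 10479 other tested genes and 15.9% of all 27025 windows. The median difference was 0.37 in the 28 genes with the run and 0.36 in the 30 without it.

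Further motifs were searched by their exact letters on both strands of the whole window. CTCTTTCC, which near the start also counts as such a run, was in 15.5% of the 58 windows, 3.01% of the 10479 other tested genes and 3.04% of all windows. CCGGAAG, an ETS factor motif, was in 39.7%, 17.9% and 9.12%. AAGATGGC, the YY1 motif, was in 6.9%, 4.67% and 2.88%. A palindrome of 10 bases, the form searched first, was in 8.62%, 0.945% and 0.496%. Its core of 8 bases, CTCGCGAG, was chosen after those values were seen and was in 10.3%, 1.8% and 0.958%. Genes with and without the letters had median differences between 0.36 and 0.37 for the first 3 motifs, of 0.38 (5 genes) and 0.36 for the longer palindrome, and of 0.39 (6 genes) and 0.36 for its core. The C/T run was in 48.6% of 35 large and 47.8% of 23 small subunit windows, CTCTTTCC in 20% and 8.7%, and CCGGAAG in 37.1% and 43.5%.

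The difference ran with coding length among the genes. Spearman's rho between the difference and the coding length of the principal transcript (GENCODE M21) was -0.476 over 78 genes, -0.445 in the large and -0.555 in the small subunit. These genes share the same 10 libraries, so rho is a description only. In 4 bins of rising coding length the median difference was 0.40 (75 to 366 bases), 0.37 (369 to 453), 0.34 (453 to 609) and 0.27 (612 to 1257). The counts of higher genes were 19 of 20, 19 of 19, 17 of 19 and 15 of 20, beside 14.5% of all tested genes. Rpl3 and Rpl4 have the longest coding sequences, and the shortest, Rpl41 with 75 bases, lay below the median with a difference of 0.29 ± 0.080 (limma adjusted p = 0.0181). Against the full length of the principal transcript rho was -0.282, and against the mean normalized count it was -0.431 over 79 genes.

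**Figure D3:**
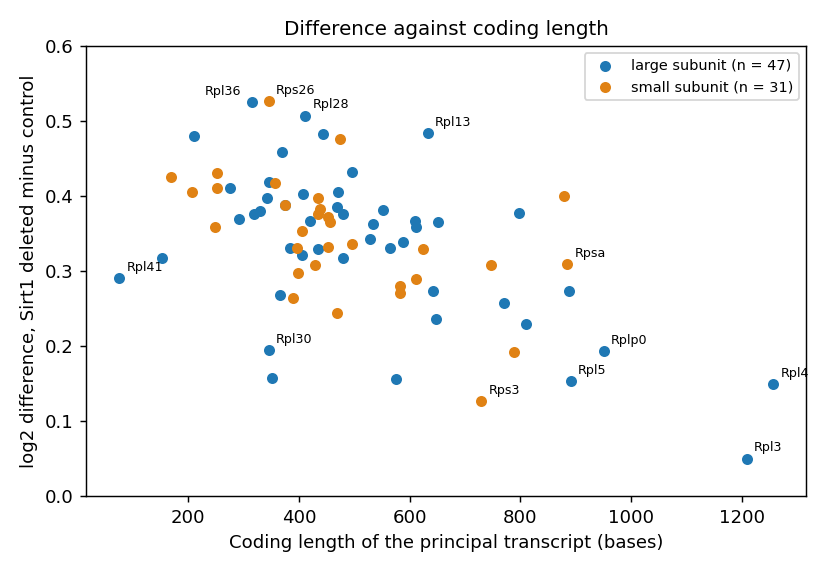
The log2 difference, Sirt1 deleted minus Control, of 78 ribosomal protein genes against the coding length of the principal transcript (bases); Rps4l has none. Blue points are large subunit genes and orange points small subunit genes, with some named. The 20 genes of up to 366 coding bases have a median of 0.40, and Rpl3 and Rpl4, the longest, lie at 0.05 and 0.15.

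Short transcripts of other genes were higher as well. The principal transcripts of the ribosomal protein genes had a median length of 774.5 bases, against 2878 bases over tested genes. Of all tested genes 14.5% were higher and 17.5% lower. Among 754 other tested genes with a principal transcript of up to 1000 bases, 433 (57.4%) were higher and 11 lower, with a median difference of 0.32. Among the 54 ribosomal protein genes of that length 51 were higher, with a median of 0.36. Abundance without regard to length gave another picture: of 472 other genes with a mean of at least 10000 normalized counts, 84 were higher and 115 lower, with a median of -0.028. Of the 21 that were both short and abundant, 12 were higher and 2 lower, with a median of 0.24.

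Each library had its own trend of values against transcript length over all tested genes, and the share of ribosomal protein mRNA moved with it. The slope of the log2 deviation on log2 length was -0.025, -0.12, -0.064, -0.046 and -0.24 in Sirt1 deleted libraries 1 to 5, against 0.14, 0.16, 0.097, 0.085 and 0.0035 in Control libraries 1 to 5. All Sirt1 deleted slopes were below 0 and all Control slopes above it. Sirt1 deleted library 5, with the highest share, had the most negative slope, and Control libraries 1 and 2, with the lowest shares, the most positive. The slopes of the groups do not overlap, so this trend and the deletion cannot be told apart as regards the rise of the ribosomal protein genes.

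**Figure D4:**
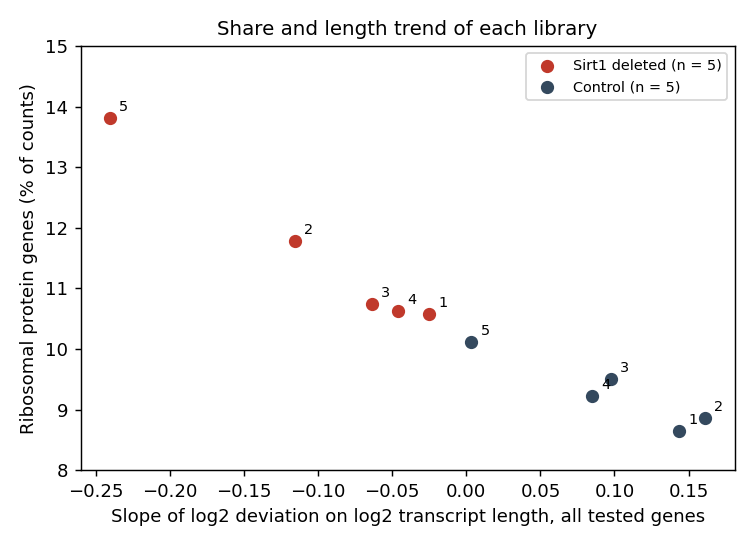
The share of all normalized counts (%) taken by the 79 ribosomal protein genes against the slope of log2 deviation on log2 transcript length over all tested genes, for 5 Sirt1 deleted (red) and 5 Control (dark blue) libraries, numbered within their group. Sirt1 deleted library 5 lies at a slope of -0.24 and a share of 13.8%, Control library 1 at 0.14 and 8.65%, and the groups do not overlap on either axis.

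The size of the rise depended on how length was treated. When smooth curves of length and GC content were removed from each library, 32 of 78 genes were higher with coding length (12.7% of all tested genes), 16 with the longest transcript (8.49%) and 13 with the principal transcript (8.71%). The medians were then 0.17, 0.064 and 0.059. The genes called lower were 1 with coding length, Rpl41 at -0.30 ± 0.066 (limma adjusted p = 0.0125), where 10.4% of all genes were lower, and 1 with the principal transcript, Rpl34 at -0.19 ± 0.049 (limma adjusted p = 0.0237), where 6.77% were. With the longest transcript 0 were lower (2 at an unadjusted p of 0.05), beside 6.14% of all genes. With the slope of each library as a covariate, limma called 0 of all 13567 genes in either direction. Of the ribosomal protein genes 0 were higher and 1 lower at an unadjusted p of 0.05, and their median was -0.026. Without the 3 libraries of steepest slope, Sirt1 deleted 5 and Control 1 and 2, the median was 0.21 and 79 of 79 differences were positive, with 0 called (62 higher at an unadjusted p of 0.05). In that limma fit 1 of all 13567 genes was called higher (0.00737%) and 2 lower (0.0147%), so both counts of 0 are near the background.

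The same 11 genes were called higher under all 3 corrections: Rpl12, Rpl15, Rpl21, Rpl23, Rpl27a, Rpl28, Rps16, Rps20, Rps25, Rps26 and Rpsa. The share of all tested genes called higher under all 3 was not counted. It can be no more than 8.49%, the share with the longest transcript. Of the 11 genes, 10 have a principal transcript of over 1000 bases in the annotation, whereas 54 of the 78 genes have up to 1000, and the correction takes less from a gene the longer it is annotated. Rps26, with 681 bases, was the exception, at 0.33 with coding length, 0.22 with the longest and 0.25 with the principal transcript. Rps20 is annotated with 3706 bases but codes for a protein in 357, and its difference was 0.42 as deposited, 0.58 with the principal transcript and 0.32 with coding length. Rpsa, a small subunit protein also known as the laminin receptor, had 163243, 175562, 152045, 160221 and 208715 normalized counts in the Sirt1 deleted spleens, against 132468, 132786, 145875, 134958 and 143865 in the Control spleens. Its groups did not overlap, at 0.31 ± 0.084 (limma adjusted p = 0.0172) as deposited and 0.29 with coding length. Which transcripts of each gene these spleens expressed was not measured.

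**Figure D5:**
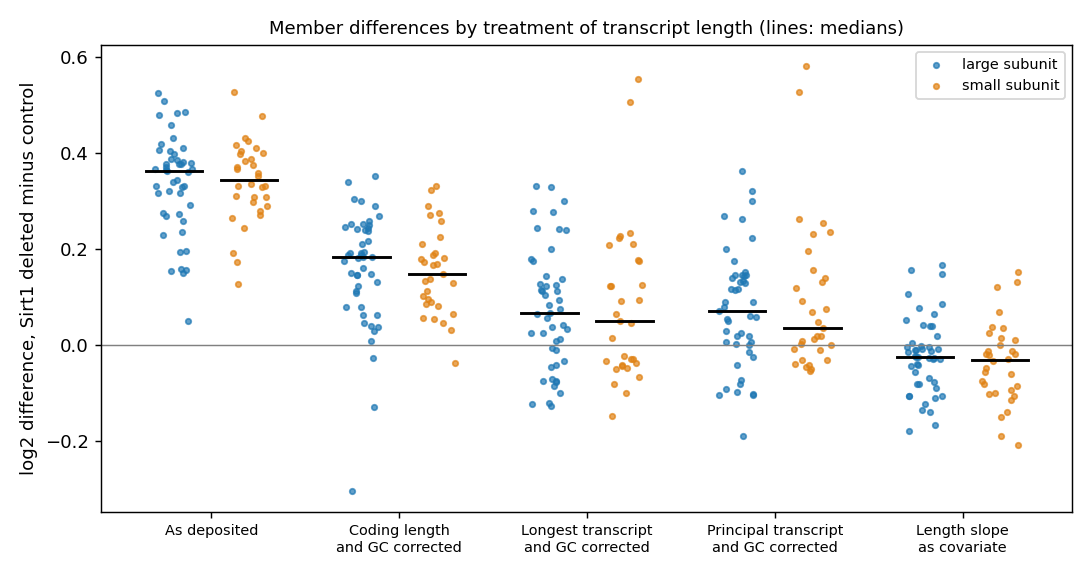
The log2 difference, Sirt1 deleted minus Control, of each ribosomal protein gene (blue, large subunit; orange, small subunit; black lines, medians) as deposited, after correction for GC content and coding, longest or principal transcript length, and with the length slope as a covariate. Medians over both subunits are 0.36 as deposited, then 0.17, 0.064, 0.059 and -0.026, with large and small subunit side by side at each setting.

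The stalk of the large subunit, which recruits the translation factors, rose in 3 of its 4 genes, beside 88.6% of all 79 genes. Rplp1 had 73200.5, 80328, 68790.2, 74025 and 85512 normalized counts in the Sirt1 deleted spleens, against 58574, 55354, 53245, 58523 and 63806 in the Control spleens. Rplp2 had 35948, 39839, 35258, 36716 and 42525 normalized counts in the Sirt1 deleted spleens, against 28267, 26723, 25491, 29287 and 32752 in the Control spleens. Both small acidic stalk proteins were higher without overlap, at 0.40 ± 0.071 (limma adjusted p = 0.00797) and 0.42 ± 0.075 (limma adjusted p = 0.00797). Under the length corrections neither passed, with Rplp1 at -0.076 (longest), -0.041 (principal) and 0.030 (coding length) and Rplp2 at 0.13, 0.15 and 0.11. Rplp0, the longer protein that anchors them, had 145853, 154355, 135673, 146739 and 170089 normalized counts in the Sirt1 deleted spleens, against 123971, 126185, 140335, 127630 and 138981 in the Control spleens, which overlapped, at 0.19 ± 0.072 (limma adjusted p = 0.0552), and passed without Sirt1 deleted library 3 (0.0313) or Control library 5 (0.0487). Rpl12, which sits at the base of the stalk, averaged 71160 ± 12416 normalized counts in Sirt1 deleted spleens and 52312 ± 4415 in Control spleens (SD, n = 5 each) at 0.43 ± 0.10 (limma adjusted p = 0.0113).

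Rpl5 and Rpl11, which bind 5S rRNA together and inhibit MDM2 when unassembled, differed in size. Rpl5 had 68464, 72658, 73182, 67908 and 78451 normalized counts in the Sirt1 deleted spleens, against 60926, 63170, 68852, 62599 and 68674 in the Control spleens. Control libraries 3 and 5 lay above the 2 lowest Sirt1 deleted libraries, and the difference was 0.15 ± 0.061 (limma adjusted p = 0.07). Rpl11 had 45282, 51584, 46445, 44703 and 67154 normalized counts in the Sirt1 deleted spleens, against 36705, 37189.8, 39234, 39673 and 43553 in the Control spleens. Its groups did not overlap and the difference was 0.36 ± 0.10 (limma adjusted p = 0.0193), with an adjusted p of 0.0534 without Control library 1 and 0.0537 without Control library 2. Whether Rpl5 and Rpl11 differ in their change was not tested.

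Genes mutated in human T-ALL (RPL5, RPL10, RPL11 and RPL22) were higher in 3 of 4 cases, with a median of 0.30. Over all 79 ribosomal protein genes 88.6% were higher, with a median of 0.36. Rpl10, which is loaded last on the large subunit, had 46673, 53044, 51162, 52629 and 63031 normalized counts in the Sirt1 deleted spleens, against 41143, 42432, 45556, 44529 and 45886 in the Control spleens. The difference was 0.27 ± 0.074 (limma adjusted p = 0.0171) without overlap, and its adjusted p was 0.0506 without Control library 1. Rpl22 had 15668, 17737, 17837, 15671 and 20621 normalized counts in the Sirt1 deleted spleens, against 13284, 13786, 12988, 14389 and 14888 in the Control spleens. All its Sirt1 deleted values stood above all Control values, at 0.33 ± 0.075 (limma adjusted p = 0.0104). Of 18 genes mutated in human Diamond-Blackfan anaemia, an inherited failure of red cell production, 17 (94.4%) were higher, with a median of 0.37. Both values are near those of all 79 genes (88.6% and 0.36), and the one that did not pass was Rpl5. Rps19, the gene most often mutated there, averaged 37521 ± 6094 normalized counts in Sirt1 deleted spleens and 28670 ± 1491 in Control spleens (SD, n = 5 each), at 0.38 ± 0.091 (limma adjusted p = 0.0121).

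Some ribosomal proteins have a paralog that can take their place, and 3 pairs could be compared as the log2 ratio of paralog to parent. Rpl22l1, which Rpl22 is known to repress in mice, had 4829.6, 5675, 6099, 5123 and 6094 normalized counts in the Sirt1 deleted spleens, against 4346, 4596, 4301, 4890.3 and 4906 in the Control spleens. As a percentage of Rpl22 these were 31.9 ± 1.77% in Sirt1 deleted spleens and 33.2 ± 0.485% in Control spleens (SD, n = 5 each), or 27.4% and 28.5% per base of transcript. The ratio differed by -0.062 ± 0.037 on the log2 scale (exact permutation p = 0.143, adjusted over 3 pairs 0.214). Paralog and parent were higher by 0.27 and 0.33. Rps27l, a paralog of Rps27 that p53 induces, had 2879, 3524, 3463, 2918 and 4154 normalized counts in the Sirt1 deleted spleens, against 2237, 2217, 2620.2, 2602 and 2832 in the Control spleens. It stood at 12.4 ± 1.15% of Rps27 in Sirt1 deleted spleens and 12.2 ± 0.502% in Control spleens, a log2 ratio difference of 0.02 ± 0.064 (exact permutation p = 0.81, adjusted 0.81).

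Rpl36al, an intronless autosomal copy of the X-linked Rpl36a, had 7769.6, 8936, 8551, 8015 and 10325 normalized counts in the Sirt1 deleted spleens, against 6974, 7464, 7414, 7302 and 7969 in the Control spleens. It stood at 36.1 ± 2.14% of Rpl36a in Sirt1 deleted spleens and 40.0 ± 1.48% in Control spleens, which overlapped. Its log2 ratio to the parent differed by -0.15 ± 0.046 (exact permutation p = 0.0159, adjusted over 3 pairs 0.0476), with Rpl36al at 0.23 ± 0.073 (limma adjusted p = 0.0321) and Rpl36a at 0.38 ± 0.10 (limma adjusted p = 0.0161). Leaving out 1 library gave exact permutation p-values, adjusted over 3 pairs, from 0.0238 to 0.0952, and the ratio differed by 0.0063 once the length slope was a covariate. In the pairs of Rpl39, Rpl3 and Rpl10 the paralog was too low to compare. Rpl39 was at 0.32 ± 0.093 (limma adjusted p = 0.0231) and lost its call without Sirt1 deleted library 2 or Control library 1, 2 or 3 (0.0555, 0.0642, 0.0541 and 0.0534).

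Ribosomal proteins whose symbols the name rule does not take were mostly higher too. Fau, which encodes a small subunit protein fused to a ubiquitin-like protein, was at 0.32 ± 0.081 (limma adjusted p = 0.0135). Under the 3 length corrections it was below 0, between -0.13 and -0.035, and with the principal transcript it was called lower (limma adjusted p = 0.0391). Rack1, a scaffold on the small subunit, averaged 83777 ± 5259 normalized counts in Sirt1 deleted spleens and 77284 ± 4522 in Control spleens (SD, n = 5 each), at 0.12 ± 0.063 (limma adjusted p = 0.168). Rps3a1, added after its values were seen, averaged 97800 ± 7744 normalized counts in Sirt1 deleted spleens and 81130 ± 5731 in Control spleens, at 0.27 ± 0.071 (limma adjusted p = 0.0158). In the list of 4 such genes (Rps3a1 not included) 3 were higher and 0 lower, where 14.5% of all tested genes were higher and 17.5% lower.

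Other lists of translation genes are given beside all tested genes, of which 14.5% were higher and 17.5% lower. Of 21 further genes with 5′ TOP mRNAs, mostly translation factors, 10 (47.6%) were higher and 0 lower, with a median of 0.15 and 17 differences above 0. The smallest p-values were those of Eif3f, a subunit of the initiation factor eIF3, at 0.32 ± 0.058 (limma adjusted p = 0.00797), and Btf3, part of the nascent chain complex, at 0.25 ± 0.059 (limma adjusted p = 0.0109). Eif3f kept its call under the 3 length corrections. Btf3 was at 0.031 with the longest and 0.053 with the principal transcript and passed in neither. Eef1a1 and Eef2, elongation factors with 5′ TOP mRNAs, were at 0.057 ± 0.074 (limma adjusted p = 0.568) and -0.14 ± 0.075 (limma adjusted p = 0.175). Of 30 genes of ribosome biogenesis and RNA polymerase I, 6 (20%) were higher and 7 lower, with a median of 0.036. The higher share was near that of all tested genes. Ubtf, which opens rRNA genes to polymerase I, was higher at 0.28 ± 0.058 (limma adjusted p = 0.00856), and Heatr1, a factor of early small subunit processing, lower at -0.31 ± 0.079 (limma adjusted p = 0.0142). Heatr1 has a principal transcript of 6780 bases, and its difference was between 0.0023 and 0.049 under the 3 length corrections.

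The next counts also stand beside 14.5% higher and 17.5% lower among all tested genes. Of 18 chaperones of ribosomal proteins and late assembly factors, 4 (22.2%) were higher and 0 lower (median 0.013). Among the higher genes were Bccip, the chaperone of Rpl23, at 0.28 ± 0.071 (limma adjusted p = 0.013), and Sbds, which helps release eIF6 from the large subunit, at 0.20 ± 0.063 (limma adjusted p = 0.0306). Corrected by the longest and principal transcript, Bccip was at 0.14 and 0.17 and Sbds at 0.085 and 0.11, and neither passed. Tsr2, the escort of Rps26 in yeast and human cells, was at 0.17 ± 0.063 (limma adjusted p = 0.0561). Of 12 regulators of ribosomal protein mRNA, 1 (8.33%) was higher and 5 lower (median -0.13). Eif4ebp1 and Eif4ebp2, which block cap-dependent initiation until mTOR phosphorylates them, went opposite ways at 0.38 ± 0.083 (limma adjusted p = 0.00923) and -0.81 ± 0.19 (limma adjusted p = 0.0108). With the length slope as a covariate Eif4ebp1 and Eif4ebp2 were at 0.16 and 0.13, in a fit that called 0 of all 13567 genes. Under the 3 length corrections Eif4ebp1 and Eif4ebp2 both kept their direction and call. Larp1 and Mtor were at -0.28 ± 0.077 (limma adjusted p = 0.0181) and -0.27 ± 0.070 (limma adjusted p = 0.0145). The principal transcripts of Eif4ebp2, Larp1 and Mtor have 5784, 6617 and 8564 bases. Values of Larp1 and Mtor under the length corrections are not given here. The part of the length trend in these differences was not tested. Of 10 genes of the p53 axis tied to the 5S particle, 3 (30%) were higher and 1 lower (median 0.13).

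Some markers of other cells differed between the groups, and their part in the rise of the ribosomal protein genes was not tested. For comparison, 14.5% of all tested genes were higher and 17.5% lower. The shares called higher among neutrophil markers (16.7%) and T cell and T-ALL markers (18.75%) were near that background. All 12 neutrophil differences were nonetheless above 0, with a median of 0.81. The sums of the B cell, neutrophil and erythroid markers overlapped between the groups. Of 11 tested B cell markers 3 were higher and 0 lower, and the 12 listed summed to between 340 and 565 normalized counts in Sirt1 deleted spleens and between 293 and 385 in Control spleens. Of 12 neutrophil markers 2 were higher and 0 lower, with sums of 2355 to 9781 in Sirt1 deleted and 1818 to 4866 in Control spleens. Of 12 monocyte and macrophage markers 0 were higher and 6 lower, and their sums, 6876 to 10554 in Sirt1 deleted and 11294 to 16305 in Control spleens, did not overlap. Of 12 erythroid markers 0 were higher and 3 lower, with sums of 171800 to 394770 in Sirt1 deleted and 362860 to 456330 in Control spleens. Of the 16 T cell and T-ALL markers 3 were higher and 1 lower. No listed marker was at 0 in all libraries. With the summed B cell markers as a covariate, limma called 0 of all 13567 genes higher and 1 lower (0.00737%). Of the ribosomal protein genes 0 were called, near that background, and 21 were higher at an unadjusted p of 0.05, with a median difference of 0.20.

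Ribosomal protein genes have many processed pseudogenes, so their reads can fit several places. Of the 31-base words in the principal transcript, a median of 61.9% per gene also occurred in transcripts of other genes (GENCODE M21, 78 genes), and 99.0% in Rpl35. Over 50% were shared in 52 genes and over 90% in 7. Of 1679 pseudogenes that hold such words, 30 had a row in the deposited table, among them Rpl37rt. Their sum was 0.0981% of that of the 79 genes in Sirt1 deleted spleens (0.0795 to 0.11%) and 0.119% in Control spleens (0.108 to 0.126%). The highest of the 30 rows, 2610005L07Rik, averaged 1920 normalized counts over the libraries, and Thap6 averaged 337. So this share is not that of rows with a ribosomal protein symbol. Of the 7 rows with a ribosomal protein pseudogene symbol 4 were tested and 0 called. These 7 rows summed to 0.0045% of the 79 genes in Sirt1 deleted spleens and 0.0036% in Control spleens. Rpl35, which shares 567 of its 916 words with transcripts of Wdr38, was at 0.46 ± 0.12 (limma adjusted p = 0.0152). How the authors' counting treated shared words in these genes is not stated, so levels of single genes are uncertain to that extent.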

How the data were processed

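Strand-specific total RNA libraries from 10 leukemic spleens were quantified by the authors with kallisto 0.44.0 and normalized with DESeq (build mm10), per the submitters' processing notes. Signal values were deposited as normalized counts per gene symbol, neither whole nor per length. Annotation, the summing of transcripts and strand use are not given in the sources used here. All columns were used (0 left out). From 82.9 to 90.3% of the lowest values lay within 0.1 of a multiple of the library's step, so whole reads were not recovered and count models not fitted.

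Tests used limma 3.58.1 (limma-trend, R 4.3.3) on log2(value + 1), Sirt1 deleted minus Control, over 13567 genes with at least 5 libraries of 10 or more, with Benjamini-Hochberg adjustment. Sirt1 and paralog ratios were tested by exact permutation (252 relabellings, of residuals where a covariate entered). Lengths came from GENCODE M21 (12397 genes), promoters from RefSeq. Length corrections removed, in each library, natural splines (5 degrees of freedom) of log2 length and of GC content. Other alternatives were pseudocounts, filters, TMM, quantile normalization, covariates and leaving out libraries, and coding length was added after seeing the data. Steps were tested on simulated data. The genes, lists and tests were chosen with earlier results of these data known. Named are Sirt1, the 4 highest and 3 lowest of each subunit, paralogs, T-ALL, 5S and stalk genes, and the 2 smallest p-values of each translation list. Further genes were named after their values were seen, and a few genes are not reported here. Tables and figures were made with pandas 2.3.3 and matplotlib 3.10.9 in Python 3.11.15.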

Additional observations from a re-analysis of the deposited data

Results flagged for a closer look

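In 54 groups of 5 libraries (27 values in each condition: the named ribosomal protein genes, Sirt1, the summed share of all normalized counts and the ratio of large to small subunit sums), 5 had a library set apart from the other 4 by Dixon's criterion, where chance gives about 1 group in 20. The 54 groups share the same 10 libraries and are not independent, so 5 of 54 cannot be set against that rate. All 5 were the highest of their group and library 5 of its condition. Among Sirt1 deleted spleens, library 5 had 41616 normalized counts of Rps26 (next 32942) and 108760 of Rpl4 (next 100160). Among Control spleens, library 5 had 43958 of Rpl13 (next 36477), 44579 of Rpl27a (next 37990) and 25060 of Rps26 (next 22655).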

How the results depend on the processing

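Pseudocounts of 0.5 and 5, no filter, a minimum of 50 and TMM factors gave 70 to 72 higher ribosomal protein genes. The count of higher genes was 46 with quantile normalization, 32 with correction by coding length, 16 by the longest and 13 by the principal transcript (with 1 lower by coding length and 1 by the principal transcript). It was 0 with the length slope or B cell markers as a covariate and 0 without the 3 libraries of steepest slope, fits in which limma called 0, 0 and 1 of all 13567 genes higher. It ranged from 42 to 72 when 1 library was left out. The medians of all, large and small subunit genes were 0.17, 0.17 and 0.17 with quantile normalization, 0.17, 0.18 and 0.15 by coding length, 0.064, 0.066 and 0.051 by the longest and 0.059, 0.072 and 0.035 by the principal transcript, -0.026, -0.026 and -0.031 with the slope and 0.20, 0.21 and 0.20 with B cell markers. Without the 3 steepest libraries the median of all was 0.21, and with 1 library left out the medians ranged from 0.27 to 0.39 for all, 0.27 to 0.40 for large and 0.26 to 0.38 for small subunit genes. The log2 ratio of large to small subunit, -0.015, was 0.010 with the slope, -0.00019 with B cell markers, -0.0011 by coding length and -0.019 to -0.0076 with 1 library left out. The cause of these shifts was not tested.

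No paired analysis was possible because the labels match no Sirt1 deleted sample with a Control sample. For the paralogs, the log2 ratio of Rpl22l1 to Rpl22 was -0.31 by the longest transcript (exact permutation p adjusted over 3 pairs 0.0119), 0.0012 by the principal transcript, 0.012 by coding length and 0.013 with the slope, and -0.088 to -0.036 with 1 library left out (adjusted exact permutation p = 0.0238 without Sirt1 deleted library 3). That of Rps27l to Rps27 was 0.17, 0.12 and 0.10 by the longest, principal and coding length, 0.16 with B cell markers, and -0.032 to 0.056 with 1 library left out, below 0 without Sirt1 deleted library 3 or Control library 3 (-0.00028). That of Rpl36al to Rpl36a was 0.041 by the longest transcript, 0.0063 with the slope, -0.069 with quantile normalization, -0.089 with B cell markers, -0.084 without the steepest libraries and -0.17 to -0.12 with 1 library left out. Sirt1 differed by -0.00057 with the slope and -0.27 without the steepest libraries (exact permutation p = 0.0857), and by -0.50 to -0.35 with 1 library left out.

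Of 744 values of single named genes under alternatives, 561 kept direction and call, 131 lost the call, 8 gained it and 44 turned. Turned by the longest transcript were Rpl36 -0.074, Rpl3 -0.13, Rps29 -0.042, Rps4x -0.029, Rpl22l1 -0.033, Rps27 -0.044, Rpl39 -0.0098, Rplp1 -0.076, Fau -0.13 and Heatr1 0.0023. Turned by the principal transcript were Rpl36 -0.026, Rpl3 -0.10, Rps4x -0.0077, Rpl36al -0.10, Rplp1 -0.041, Fau -0.13 and Heatr1 0.010. With coding length these were Rpl36al -0.0047, Rpl39 -0.028, Fau -0.035 and Heatr1 0.049. With the slope they were Rpl28 -0.027, Rpl3 -0.015, Rpl5 -0.023, Rps27l -0.034, Rps3 -0.047, Rps4l -0.19, Rpl36al -0.070, Rps27 -0.15, Rpl39 -0.080, Rpl10 -0.0098, Rpl36a -0.077, Rpl11 -0.11, Rplp0 -0.028, Rpl12 -0.043, Fau -0.024, Heatr1 0.020, Sbds -0.032 and Eif4ebp2 0.13. With quantile normalization they were Rpl3 -0.11, Rpl4 -0.026, Rpl5 -0.055 and Rps3 -0.057. With 1 library left out it was Rps4l, which ranged from -0.027 (without Control library 3) to 0.30.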

Other observations

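Rpl37rt, a symbol outside the name rule with no protein-coding transcript in GENCODE M21, was named after its values were seen. It averaged 274 ± 66.2 normalized counts in Sirt1 deleted spleens and 175 ± 46.3 in Control spleens (SD, n = 5 each). Its groups overlapped and its log2 difference was 0.65 ± 0.21 (limma adjusted p = 0.0348), while that of Rpl37, the protein-coding gene, was 0.37 ± 0.087 (limma adjusted p = 0.0112). The relation of reads between the 2 rows was not tested.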
